A study of Mus musculus with 2 samples.

Results

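The expression of 10 genes of killing and effector function was examined in the lymphocytes of hARtg-driven prostate lesions. The genes were the granzymes Gzma, Gzmb and Gzmk, the pore protein gene Prf1, the granule membrane protein gene Nkg7, the cytokine gene Ifng, the death ligand gene Fasl, the receptor genes Klrd1 and Klrk1 and the transcription factor gene Tbx21. They were chosen by name as a functional group and make up 10 of the 19320 features of the expression table, and all 10 had a row in it. They were read in 719 lymphocytes of 15742 cells. All lymphocytes had 0 unique molecular identifiers (UMIs, tags that count captured RNA molecules) of the epithelial gene Epcam. Cd8a-positive T cells had 1 or more UMI of Cd3d, Cd3e or Cd3g and 1 or more of Cd8a. Cd8-negative T cells had 1 or more UMI of these Cd3 genes and 0 of Cd8a and Cd8b1. Cd3-negative cells had 0 UMIs of the Cd3 genes and 1 or more of Il2rb or Nkg7, so the Nkg7 level of that class was partly fixed by the gate.

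The mice were R26 mTmG/hAR:Osr1 Cre/+, and the Cre allele switches on a human androgen receptor transgene (hARtg) and membrane-bound GFP (mGFP) in cells of the Osr1 lineage. Both lesions carried the same alleles, on a mixed C57BL/6 and 129S1/SvImJ background per the methods of the study. The PIN library (prostatic intraepithelial neoplasia) came from prostate tissue at 6 months of age and the PCa library (prostatic adenocarcinoma) at 12 months, with 1 library each. No immune sort was described, so the lymphocytes are those that came with dissociated prostate tissue. Cell barcodes carried 1 of 2 endings, called set 1 and set 2 here, and neither the labels nor the column names tie an ending to a lesion. The cell number after filtering that the study states for PIN equals that of the first set, and the number for PCa is close to that of the second. No set was assigned to a lesion from cell numbers, so values are given by barcode set, and ratios between the sets would compare the lesions if this match holds.

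Cytotoxic lymphocytes, mainly CD8 T cells and natural killer (NK) cells, kill by releasing granules that hold perforin and granzymes. Perforin opens pores in the target membrane, and granzymes are serine proteases that enter the target and start its death. Fas ligand and secreted interferon-gamma act beside the granules, and receptors of the killer lectin-like family tune when a cell responds.

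The granzyme genes are shown first by their promoters. In the mouse build GRCm38.p6, Gzma lies at chr13:113093824-113100981 and Gzmk at chr13:113171630-113180965, both on the minus strand, with 70648 bases and 2 other annotated genes (Cdc20b and 1700084D21Rik) between them. Gzmb lies apart from both, at chr14:56258836-56262334 on the minus strand. The 250 bases before each annotated RefSeq start are at chr13:113100982-113101231 for Gzma, chr14:56262335-56262584 for Gzmb and chr13:113180966-113181215 for Gzmk. They are printed 5′ to 3′ on the strand of the gene, and capitals mark the T-box core AGGTGT or its complement ACACCT and the RUNX core TGTGGT or its complement ACCACA.
Gzma: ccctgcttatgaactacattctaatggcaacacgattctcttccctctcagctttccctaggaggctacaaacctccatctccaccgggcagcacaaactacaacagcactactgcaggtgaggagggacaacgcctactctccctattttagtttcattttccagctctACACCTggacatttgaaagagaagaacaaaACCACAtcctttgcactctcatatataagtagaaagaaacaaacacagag
Gzmb: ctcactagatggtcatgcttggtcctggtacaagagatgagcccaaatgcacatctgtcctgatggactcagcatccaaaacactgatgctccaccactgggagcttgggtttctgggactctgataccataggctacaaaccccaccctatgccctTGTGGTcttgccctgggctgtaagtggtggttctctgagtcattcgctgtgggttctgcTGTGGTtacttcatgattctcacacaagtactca
Gzmk: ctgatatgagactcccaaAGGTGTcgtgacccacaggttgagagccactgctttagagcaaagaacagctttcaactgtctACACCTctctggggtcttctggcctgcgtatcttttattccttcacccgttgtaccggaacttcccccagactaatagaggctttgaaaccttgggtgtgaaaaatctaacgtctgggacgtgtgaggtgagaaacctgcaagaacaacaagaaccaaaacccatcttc

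The Gzma window held 1 T-box core, 80 bases before the start, and 1 RUNX core, 50 bases before it. The Gzmb window held 2 RUNX cores and no T-box core. The Gzmk window held 2 T-box cores and no RUNX core. Of the 32851 promoters of the RefSeq table, 11.8% held the T-box core and 14.0% the RUNX core in a window of this length. Promoters were found for 9 of the 10 genes. The windows of Prf1 and Nkg7 held 1 T-box core and 1 RUNX core each, and that of Klrk1 held 1 RUNX core. Those of Ifng, Fasl and Tbx21 held neither. These are matches of letters, no binding was measured and no link to the levels below was tested. Klrd1 and Klrk1 also lie close together, at chr6:129588092-129598775 and chr6:129610323-129623903, with 11547 bases between them.

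Set 1 held 335 Cd8a-positive T cells, 227 Cd8-negative T cells and 121 Cd3-negative cells, together 10.8% of its 6332 cells (95% Clopper-Pearson interval 10.0 to 11.6%). Set 2 held 8, 23 and 5 such cells, together 0.383% of its 9410 cells (0.268 to 0.529%). Lymphocytes were shallow, with a median of 3628 UMIs in set 1 and 2734.5 in set 2, against 22028.5 and 16973.5 in epithelial cells (Epcam-positive, with 0 UMIs of Ptprc and the Cd3 genes). In total, 67 barcodes occurred in both sets, of which 2 were lymphocytes of set 1 and 0 were lymphocytes of set 2. With 1 library per lesion, intervals cover counting error only, no difference has a replicate check and no test was made.

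The class labels were read against marker genes. Ptprc, the pan-leukocyte gene, was found in 90.7%, 80.6% and 94.2% of the Cd8a-positive, Cd8-negative and Cd3-negative cells of set 1. Cd4 was found in 25.1% and Foxp3 in 7.05% of the Cd8-negative T cells, so most of that class showed no Cd4 UMI. The NK gene Ncr1 was found in 14.9% of Cd3-negative cells and in 0 Cd8a-positive T cells, and Klrb1c in 3.31% and 0.299%. Other genes of the NK list were found in more cells of both classes: Klrc1 in 41.3% and 48.7%, Klre1 in 33.1% and 31.3% and Eomes in 21.5% and 16.7%. Itga1 was found in 12.4% and 4.18%. Few Cd3-negative cells thus had a UMI of Ncr1 or Klrb1c at a median of 3876 UMIs per cell, and the class is called by its rule. T cell genes other than Cd3 were found in 34.7% of these cells, with Cd28 in 32.2% and Lat in 4.13%. In Cd8a-positive T cells Cd28 was found in 69.0% and Lat in 53.4%. In set 2 all 5 Cd3-negative cells had a UMI of these genes. T cells whose Cd3 RNA was not captured would fall in this class, and their part in the ratios below was not tested. The T cell receptor constant genes Trac, Trbc1, Trbc2 and Trdc have no row in the table. Macrophage genes (C1qa, C1qb, C1qc, Csf1r, Adgre1, Lyz2) were seen in 0.826% to 2.69% of the cells of a class, neutrophil and mast cell genes in none. Fibroblast genes (Col1a1, Col3a1, Dcn) summed to 361, 21.2 and 558 CPM in the 3 classes, in 3.96% to 7.76% of their cells, and their part in the ratios below was not tested. Krt8, an epithelial keratin, was found in 46.3% to 47.8% of each lymphocyte class of set 1, so epithelial RNA was present in cells of every class.

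Gzma was the granzyme with the widest spread of levels. In set 1 its summed level was 1143 CPM (UMIs of the gene per 1e+06 UMIs; 95% Poisson interval 1094 to 1193; 2049 UMIs) in Cd8a-positive T cells. It was 196 CPM (169 to 225; 194 UMIs) in Cd8-negative T cells and 1957 CPM (1839 to 2081; 1014 UMIs) in Cd3-negative cells. The 3 intervals do not overlap, and by summed level the order was Cd3-negative, Cd8a-positive, Cd8-negative. These intervals cover counting error only and not the spread between cells. Gzma encodes a tryptase and was carried by few cells: 33.4% of Cd8a-positive T cells had a UMI, and the 34 cells with the most held 80.8% of the UMIs. The highest cell had 218 Gzma UMIs. Among Cd8-negative T cells all 194 UMIs lay in 18 cells. The share of Cd3-negative cells with a UMI was 43.0% (34.0 to 52.3%), which overlaps that of Cd8a-positive T cells (28.4 to 38.8%).

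Gzmb, the caspase-activating granzyme, stood at a lower level with the same order. It measured 187 CPM (167 to 208) in Cd8a-positive, 38.3 CPM (27.1 to 52.6) in Cd8-negative and 288 CPM (243 to 338) in Cd3-negative cells of set 1. UMIs were found in 19.1%, 5.73% and 30.6% of the cells, and 34 Cd8a-positive cells held 91.0% of that class's Gzmb. Most cells of every class were thus at 0 for Gzmb.

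Gzmk went another way. Its level was 149 CPM (132 to 168; 268 UMIs) in Cd8a-positive and 154 CPM (131 to 181; 153 UMIs) in Cd8-negative T cells, with intervals that overlap under this gate. In Cd3-negative cells it was 25.1 CPM (13.4 to 42.9; 13 UMIs). Gzmk UMIs were found in 23.6%, 28.2% and 7.44% of the cells. Of the 10 genes it alone had its lowest level in the Cd3-negative class.

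Prf1, which encodes perforin, was sparse, with 26, 7 and 14 UMIs in the Cd8a-positive, Cd8-negative and Cd3-negative cells of set 1. The levels were 14.5 CPM (9.47 to 21.3), 7.06 CPM (2.84 to 14.5) and 27.0 CPM (14.8 to 45.3), and the Cd8a-positive interval overlaps both others, while those of the Cd8-negative and Cd3-negative classes lie just apart. No cell held more than 2 Prf1 UMIs. Nkg7, a granule membrane protein of cytotoxic cells, was the most widely found of the 10. It had UMIs in 91.0% of Cd8a-positive T cells at 1106 CPM (1058 to 1156), and in 35.7% of Cd8-negative T cells at 273 CPM (242 to 308). In Cd3-negative cells it stood at 865 CPM (786 to 949), and at 862 CPM where that class was gated on Il2rb alone (106 cells).

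Ifng, the gene of interferon-gamma, measured 134 CPM (118 to 152) in Cd8a-positive, 54.4 CPM (40.9 to 71.0) in Cd8-negative and 114 CPM (86.7 to 147) in Cd3-negative cells, and the first and last overlap. Fasl, the ligand of the death receptor Fas, varied less, with 143 CPM (126 to 162), 106 CPM (86.6 to 128) and 208 CPM (171 to 252) in the same order, and the T cell classes overlap. Its UMIs were spread over 45.7%, 26.9% and 50.4% of the cells, with a median of 1, 1 and 2 UMIs in those cells.

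Klrd1 encodes CD94, which pairs with NKG2 chains, and Klrk1 encodes NKG2D, a receptor for stress-induced ligands. Klrd1 measured 361 CPM (334 to 390) in Cd8a-positive and 399.5 CPM (347 to 458) in Cd3-negative cells, which overlap, and 86.7 CPM (69.3 to 107) in Cd8-negative T cells. Klrk1 was highest in Cd3-negative cells at 635 CPM (568 to 707), followed by 240 CPM (218 to 264) in Cd8a-positive and 107 CPM (87.5 to 129) in Cd8-negative T cells. Tbx21, the gene of the type 1 factor T-bet, was low in all classes, with 34.0 CPM (26.0 to 43.7), 25.2 CPM (16.3 to 37.2) and 75.3 CPM (53.5 to 103). The Tbx21 levels of both T cell classes overlap, and that of Cd3-negative cells lay above both.

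**Figure D1:**
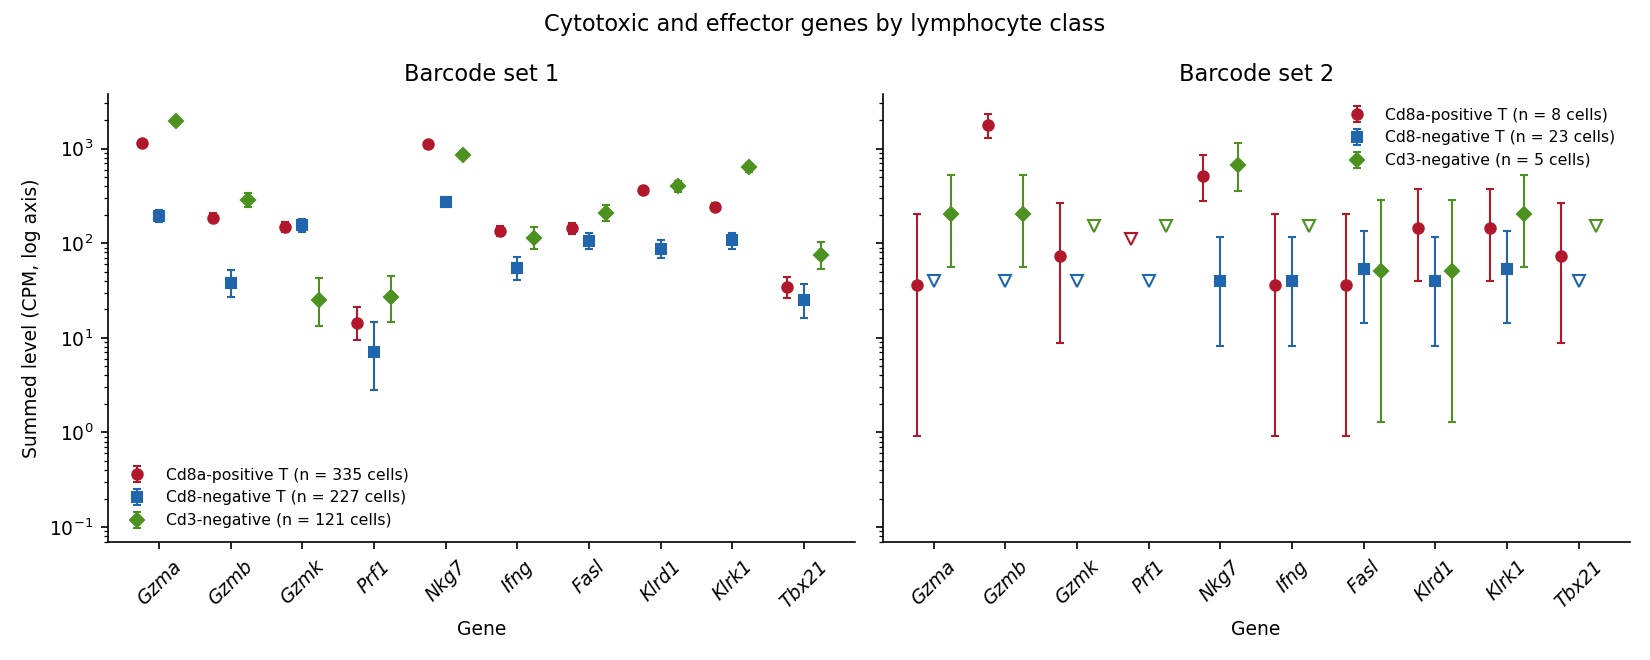
Summed level (CPM, log axis) of each gene in Cd8a-positive T cells (red circles), Cd8-negative T cells (blue squares) and Cd3-negative cells (green diamonds) of set 1 (left) and set 2 (right), with 95% Poisson intervals as bars and open triangles at the level of 3 UMIs for classes with 0 UMIs. In set 1 Gzma spans 196 to 1957 CPM, while Gzmk is lowest in the Cd3-negative class at 25.1 CPM.

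Detection was set against the background in epithelial cells. Among 4782 epithelial cells of set 1 (median 22028.5 UMIs), Gzma was found in 1.32%, Fasl in 1.02%, Nkg7 in 0.857% and the other genes in 0.502% or fewer, with Prf1 in 0 of 4782, which allows a share of up to 0.0627%. After every cell was thinned to 2000 UMIs, the highest of these background shares was 0.126%. The lymphocyte shares after thinning lay above it for all 10 genes in all 3 classes. Thinning removed more of each epithelial cell than of each lymphocyte. RNA from outside the cell need not scale with depth, so 0.126% may understate it in lymphocytes. Before thinning, the lowest lymphocyte share was 2.64% (Prf1 in Cd8-negative T cells), above the 1.32% of Gzma in epithelial cells. At this depth Gzma was found in 27.9% (23.1 to 33.1%) of Cd8a-positive, 7.11% (4.12 to 11.3%) of Cd8-negative and 42.0% (33.0 to 51.4%) of Cd3-negative cells. Thinned Gzmk shares were 17.0% (13.1 to 21.5%), 21.3% (16.2 to 27.3%) and 5.04% (1.87 to 10.7%). By point values the orders of both granzymes were those of the CPM levels. The Gzma intervals of Cd8a-positive and Cd3-negative cells barely overlap, and the Gzmk intervals of both T cell classes overlap. The thinning left out 5, 2 and 2 cells of the classes.

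**Figure D2:**
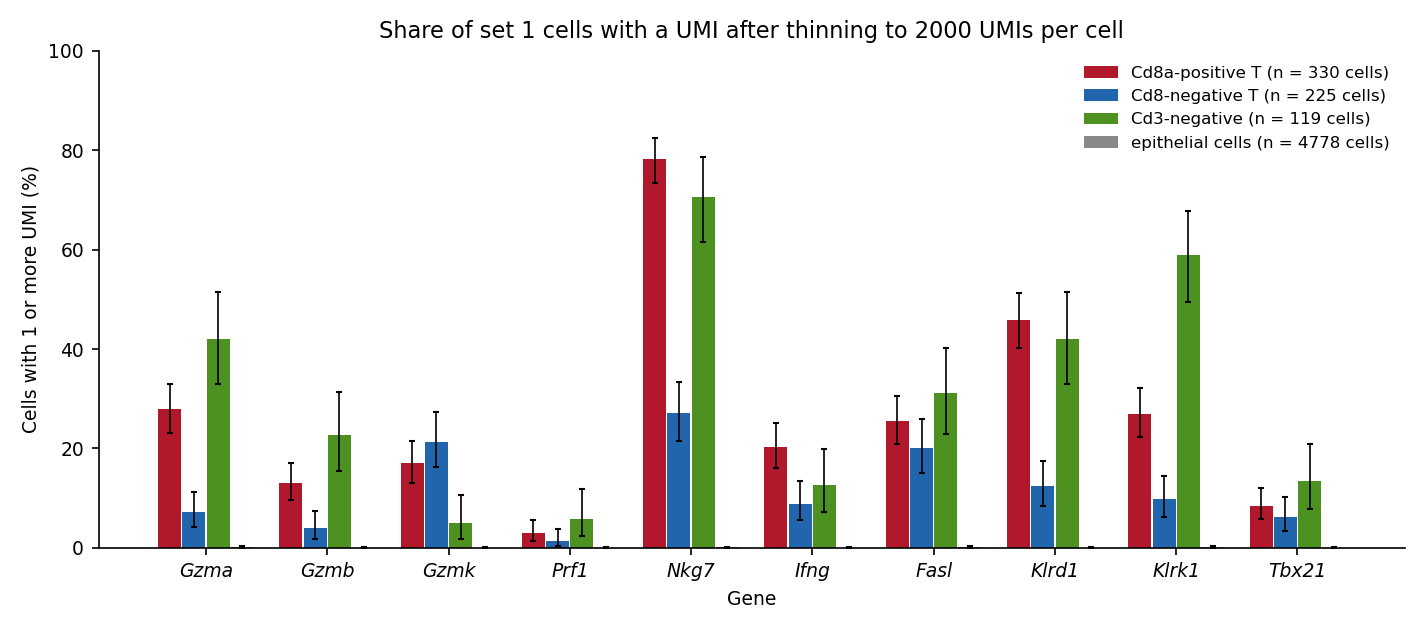
Share of set 1 cells with 1 or more UMI of each gene (percent of cells) after thinning each cell to 2000 UMIs, in the 3 lymphocyte classes and in epithelial cells (grey), with 95% Clopper-Pearson intervals as error bars. Epithelial shares are at most 0.126%, while Nkg7 reaches 78.2% in Cd8a-positive T cells.

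The 10 genes were compared between Cd8a-positive and Cd8-negative T cells of set 1. Of the 10, 7 were 2-fold or more higher in Cd8a-positive cells and 0 were lower, beside 8.7% and 2.92% of the 8616 features with 20 or more UMIs. Their median log2 ratio was 1.24, against 0.05 over all features. Gzma had the largest log2 ratio, 2.55 (95% interval 2.33 to 2.77), followed by Gzmb at 2.29 (1.80 to 2.81), Klrd1 at 2.06 (1.73 to 2.40) and Nkg7 at 2.02 (1.83 to 2.21). Ifng followed at 1.30 (0.87 to 1.76), Klrk1 at 1.17 (0.86 to 1.49) and Prf1 at 1.04 (-0.20 to 2.49), and the interval of Prf1 includes 0. The remaining 3 genes were under 2-fold: Fasl at 0.44 (0.10 to 0.78), Tbx21 at 0.43 (-0.26 to 1.17) and Gzmk at -0.05 (-0.34 to 0.25). Cells of this class with Cd8 RNA that was not captured are counted as Cd8-negative, and their part in these ratios was not tested. With no condition on Epcam the ratio of Gzmk was 0.81, that of Fasl 1.51 and that of Tbx21 1.75, and with up to 2 Epcam UMIs that of Gzmb was 1.55.

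Other genes of the granule and receptor machinery were read from lists. Of the effector list, 20 of 22 genes had a row, 16 had 20 or more UMIs, and 5 were 2-fold or more higher in Cd8a-positive T cells with 0 lower (median log2 ratio 0.35). The highest were Cst7, an inhibitor of granule proteases, at 1.84, the chemokine gene Ccl5 at 1.52 and the serpin gene Serpinb6b at 1.36. The lowest were the granule proteoglycan gene Srgn at -0.58, Tnf at -0.56 and Serpinb9, which encodes a granzyme B inhibitor, at -0.34. Of 14 receptor genes, 10 had enough UMIs, 4 were higher and 2 lower. Those highest were the partners and relatives of Klrd1: Klre1 at 2.41, Klrc2 at 2.33 and Klrc1 at 2.26. Those lowest were the cytokine receptor genes Il18r1 at -1.39 and Il12rb2 at -0.46 and the adaptor gene Tyrobp at -1.21.

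Of the 9 regulator genes, 0 passed 2-fold in either direction in this comparison. Eomes, a T-box factor related to Tbx21, had the highest log2 ratio at 0.91 (0.31 to 1.55), followed by Id2 at 0.79 and Tox at 0.75. Tcf7, a factor of memory and naive T cells, had the lowest at -0.90 (-1.32 to -0.47), next to Runx3 at -0.10 and Bach2 at 0.15. Of 8 genes of residency and circulation, 5 had enough UMIs and 0 passed 2-fold, with Ccr7 at 0.77, Cxcr6 at 0.58, Itgae at 0.52, Itga1 at 0.43 and S1pr1 at -0.91.

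Between Cd3-negative cells and Cd8a-positive T cells of set 1, 2 of the 10 genes were 2-fold or more higher in the Cd3-negative class and 1 was lower, beside 4.46% and 11.6% of 8267 features. The higher genes were Klrk1, with a log2 ratio of 1.40 (1.19 to 1.62), and Tbx21, with 1.15 (0.53 to 1.75). The lower gene was Gzmk, at -2.57 (-3.50 to -1.78), which was 5.96-fold lower. Gzma at 0.78 (0.67 to 0.89), Gzmb at 0.62 (0.33 to 0.91) and Fasl at 0.54 (0.20 to 0.87) were higher by less than 2-fold. For Klrd1 (0.15, -0.09 to 0.38), Ifng (-0.24, -0.68 to 0.18) and Prf1 (0.90, -0.15 to 1.89) the interval includes 0. Nkg7, which helped to gate the class, stood at -0.36 (-0.51 to -0.21). When cells with any number of Epcam UMIs were let in, the ratios of Gzma (-1.30), Gzmb (-0.41), Fasl (-0.92), Klrk1 (-0.43) and Tbx21 (-0.44) turned negative, as did those of Klrd1 (-1.65) and Prf1 (-0.16), whose intervals had included 0. The cells so added to the Cd3-negative class numbered 137, with a median of 32 Epcam UMIs and 22033 UMIs in all. With up to 2 Epcam UMIs allowed, Gzma stayed at 0.37 and Gzmb at 1.07.

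**Figure D3:**
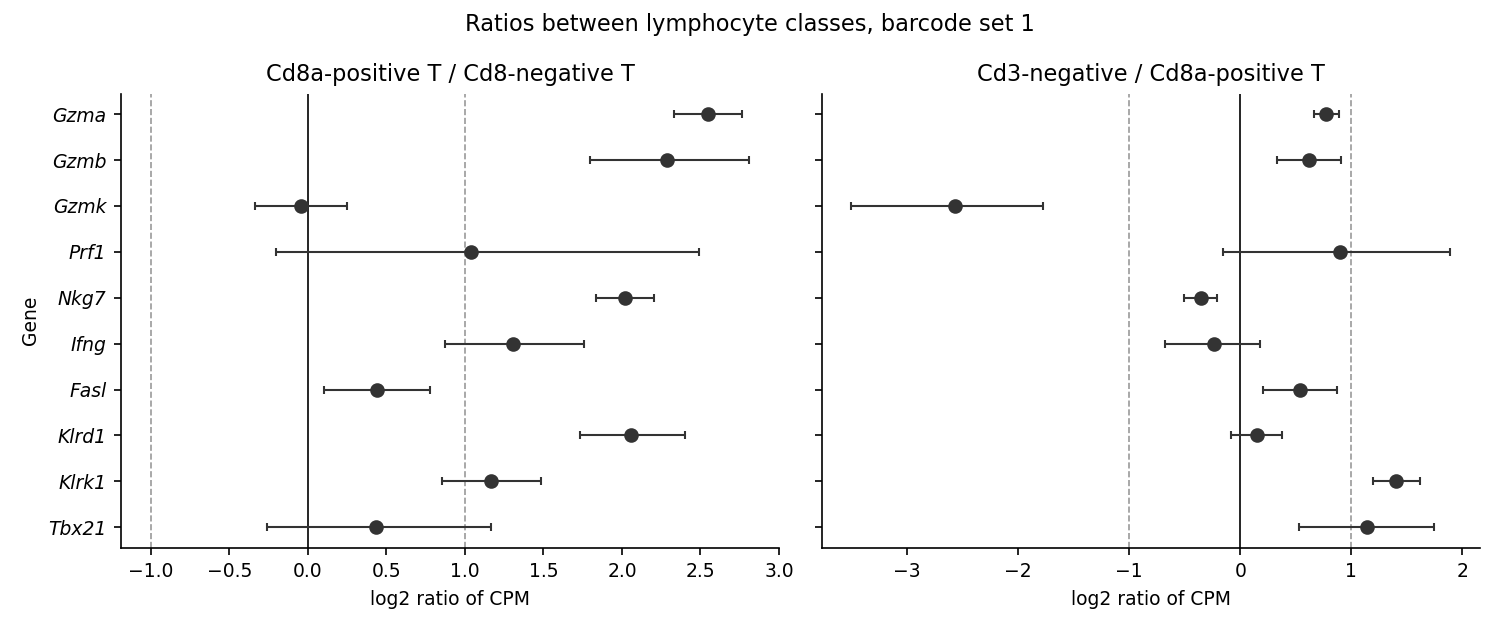
log2 ratio of CPM for each gene, Cd8a-positive over Cd8-negative T cells (left) and Cd3-negative over Cd8a-positive T cells (right), in set 1, with 95% conditional binomial intervals (counting error only) as bars and 2-fold as dashed lines. Gzmk lies at -0.05 on the left and at -2.57 on the right, while Gzma lies at 2.55 and 0.78.

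In the same comparison 4 of 16 effector genes were higher and 3 lower in Cd3-negative cells. Serpinb9 was highest at 2.22 (2.00 to 2.44), followed by the chemokine gene Xcl1 at 1.49 and the cathepsin gene Ctsw at 1.26. Stx11, a syntaxin of granule release, was lowest at -2.45 (-3.18 to -1.80). Rab27a, which docks granules, had 0 UMIs against 33, a log2 ratio of at most -1.67 with the floor of 3 UMIs over the class, and Tnf stood at -1.64 (4 against 43 UMIs). Of 13 receptor genes 5 were higher and 1 lower. The highest were Fcgr3, an Fc receptor of NK cells, at 6.72 (4.81 to 9.80, 61 against 2 UMIs), Ncr1 at 4.85 or more (25 against 0 UMIs) and Tyrobp at 4.56. Klrc2 at 0.02 and Klrc1 at -0.19 had intervals that include 0, as Klrd1 did, and Crtam was lowest with 6 against 83 UMIs.

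Among regulators Eomes was higher by 1.23 (0.77 to 1.68), Bach2 by 0.73 and Runx3 by 0.51. Prdm1, which encodes Blimp-1, was lowest at -2.38 (-4.04 to -1.10), with Tox at -2.26 and Stat4 at -0.22. In all, 1 of 9 regulators was 2-fold or more higher and 2 were lower. Among residency and circulation genes Itga1 was higher at 1.70 (0.62 to 2.78), and Ccr7 at -2.03 and S1pr1 at -1.44 were lower. Itgae stood at -0.34 and Cxcr6 at -0.97. Endothelial Pecam1, which leukocytes also express, was found in 25.6% of Cd3-negative and 5.37% of Cd8a-positive T cells, and the dendritic cell list (Flt3, Xcr1, Itgax, Siglech) in 19.0% and 1.79%, in the former from Itgax alone. With cells of Pecam1, C1qa, Csf1r, Flt3, Cd79a or Col3a1 left out and Ptprc required (83 and 274 cells), Gzma stood at 0.84, Klrk1 at 1.29, Tbx21 at 1.52 and Gzmk at -2.17.

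Single cells were then read for which granzymes they held together. Of the 335 Cd8a-positive T cells of set 1, 137 had a UMI of none of the 3 granzymes. A single granzyme was found in 75 cells for Gzma, 47 for Gzmk and 23 for Gzmb. Gzma and Gzmb were together in 21 cells, Gzmb and Gzmk in 16, Gzma and Gzmk in 12 and all 3 in 4. Cells with Gzma thus held Gzmk in 14.3% (8.39 to 22.2%; 16 of 112), against 28.3% (22.4 to 34.6%; 63 of 223) of cells without Gzma. Median depth was 3351 UMIs in the former and 3900 in the latter. After thinning to 2000 UMIs, 7 of 92 cells with Gzma also held Gzmk. Gzmb did not follow this split: it was found in 22.3% of cells with Gzma and 17.5% of those without, and in 25.3% with Gzmk and 17.2% without, with overlapping intervals.

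Among the Cd8-negative T cells of set 1, 59 of 227 carried Gzmk alone and 142 carried none of the 3 granzymes. Only 10 of the 227 held Gzma alone, and 0 held all 3. Of the Cd3-negative cells, 25 held Gzma alone, 21 Gzma with Gzmb, 12 Gzmb alone and 3 Gzmk alone. Over all 10 genes, the median number found in a cell was 4 in Cd8a-positive T cells, 1 in Cd8-negative T cells and 4 in Cd3-negative cells. A UMI of none of the 10 was seen in 75 Cd8-negative T cells and 8 Cd3-negative cells, while 0 Cd8a-positive T cells lacked all 10. Nkg7, 1 of the 10, helped to gate the Cd3-negative class and was found in 83.5% of it. The numbers of genes per cell in that class were thus partly fixed by the gate.

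**Figure D4:**
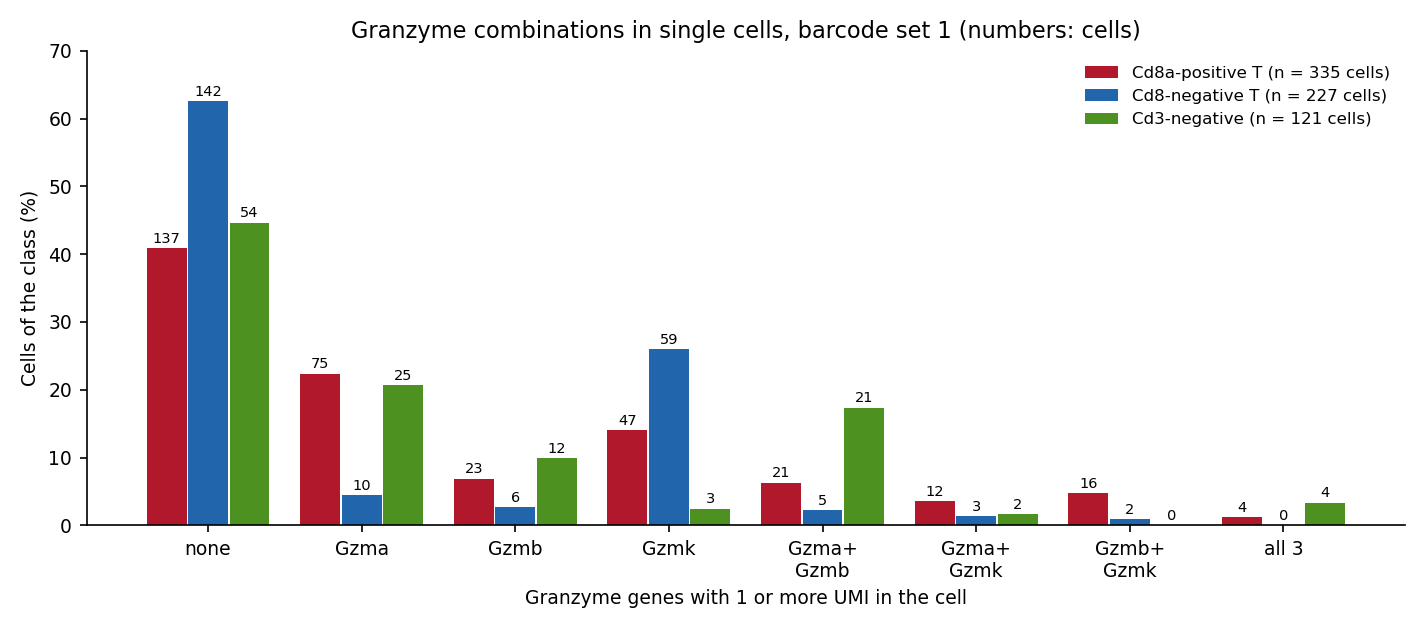
Share of cells of each lymphocyte class in set 1 (percent, bars) by which of Gzma, Gzmb and Gzmk had 1 or more UMI, with the number of cells above each bar. Gzmk alone is the largest granzyme-bearing group of Cd8-negative T cells (59 cells), and Gzma alone that of the other classes (75 and 25 cells).

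Receptor detection also differed between cells with and without a granzyme. Klrd1 was found in 34.2% (23.9 to 45.7%) of Cd8a-positive T cells with Gzmk and in 70.3% (64.3 to 75.8%) of those without it, at median depths of 3689 and 3761.5 UMIs. Klrk1 was found in 19.0% (15 of 79) and 45.7% (117 of 256). With Gzma the direction was the other one for Klrd1, 78.6% (69.8 to 85.8%) of cells with Gzma against 53.4% (46.6 to 60.1%) without. Ifng was found in 42.0% (32.7 to 51.7%) with Gzma and 29.6% (23.7 to 36.1%) without, and these intervals overlap.

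These observations led to a comparison of the 96 Cd8a-positive T cells with Gzma and no Gzmk (median 3299 UMIs) and the 63 with Gzmk and no Gzma (median 3646 UMIs) in set 1, chosen after the values above had been seen and given as a description. Apart from Gzma and Gzmk, which made the split, 7 of the other 8 genes had 20 or more UMIs. Of these, 3 were 2-fold or more higher in the Gzma cells and 0 lower, beside 9.7% and 6.37% of 5153 features, and the median log2 ratio was 0.91. Klrd1 stood at 1.83 (1.42 to 2.25; 259 against 61 UMIs), Ifng at 1.47 (0.77 to 2.23; 73 against 22) and Klrk1 at 1.36 (0.84 to 1.92; 123 against 40). Tbx21 at 0.91 (-0.36 to 2.32), Fasl at 0.74 (0.20 to 1.31), Gzmb at 0.29 (-0.16 to 0.75) and Nkg7 at 0.13 (-0.06 to 0.31) did not reach 2-fold, and Prf1 had 9 against 2 UMIs.

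Of the regulator list, Id2 was higher in the Gzma cells by 1.70 (1.44 to 1.96; 601 against 155 UMIs), with Prdm1 at 0.93 and Zeb2 at 0.56. Eomes stood at -2.55 (-3.64 to -1.60; 11 against 54 UMIs) and Tcf7 at -2.92 (-5.32 to -1.16; 3 against 19 UMIs), and Bach2 at -0.79. Tbx21 and its relative Eomes thus had ratios of opposite sign, although the interval of Tbx21 includes 0. Of the residency and circulation genes, Itgae (the integrin chain CD103) stood at 2.27 (0.72 to 4.26; 23 against 4 UMIs) and Cxcr6 at 1.06 (0.84 to 1.28), while the lymph node homing receptor gene Ccr7 stood at -2.04 (-3.01 to -1.15; 14 against 48 UMIs) and S1pr1 at -1.54 (-3.05 to -0.20).

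Of 13 effector genes 4 were higher and 0 lower in the Gzma cells: Tnfsf10, a death ligand gene, at 3.99 (1.34 to 9.37; 19 against 1 UMI), Xcl1 at 2.91 (1.70 to 4.42), Ccl4 at 1.79 (1.29 to 2.32) and Serpinb6b at 1.43. The lowest were Stx11 at -0.03, Ccl3 at 0.10 and Ctsw at 0.16. Of 7 receptor genes 4 were higher and 0 lower, led by Cd226 at 2.96 (1.27 to 5.33), Klre1 at 1.35 and Klrc1 at 1.10, with Hcst at -0.18, Il2rb at 0.38 and Klrc2 at 0.72 at the other end.

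Over all features, genes of other lineages and of cell division led the same comparison. The Gzma side was led by Ccl21a (139 against 0 UMIs), Csf2rb, H2-Eb1, Tcf4 and Rnd1, and the Gzmk side by Ube2c (1 against 84 UMIs), Cxcl14, Cryab, Hspa1b and Tnfaip6, with the proliferation gene Mki67 at 2 against 62 UMIs. Endothelial markers (Pecam1, Cdh5) summed to 167 CPM in 5 of the Gzma cells and 9.06 CPM in 3 of the Gzmk cells. Fibroblast markers (Col1a1, Col3a1, Dcn) summed to 75.7 CPM and 667 CPM, the latter with 218 of 221 UMIs in 1 cell. Under the stricter gate above, which left 81 and 50 cells, the log2 ratios were 1.93 for Klrd1, 1.58 for Ifng, 1.61 for Klrk1, -2.19 for Eomes, -3.73 for Tcf7, 2.38 for Itgae and -3.53 for Ccr7. These directions were those of the full split. With no condition on Epcam, Klrk1 stood at 0.72.

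**Figure D5:**
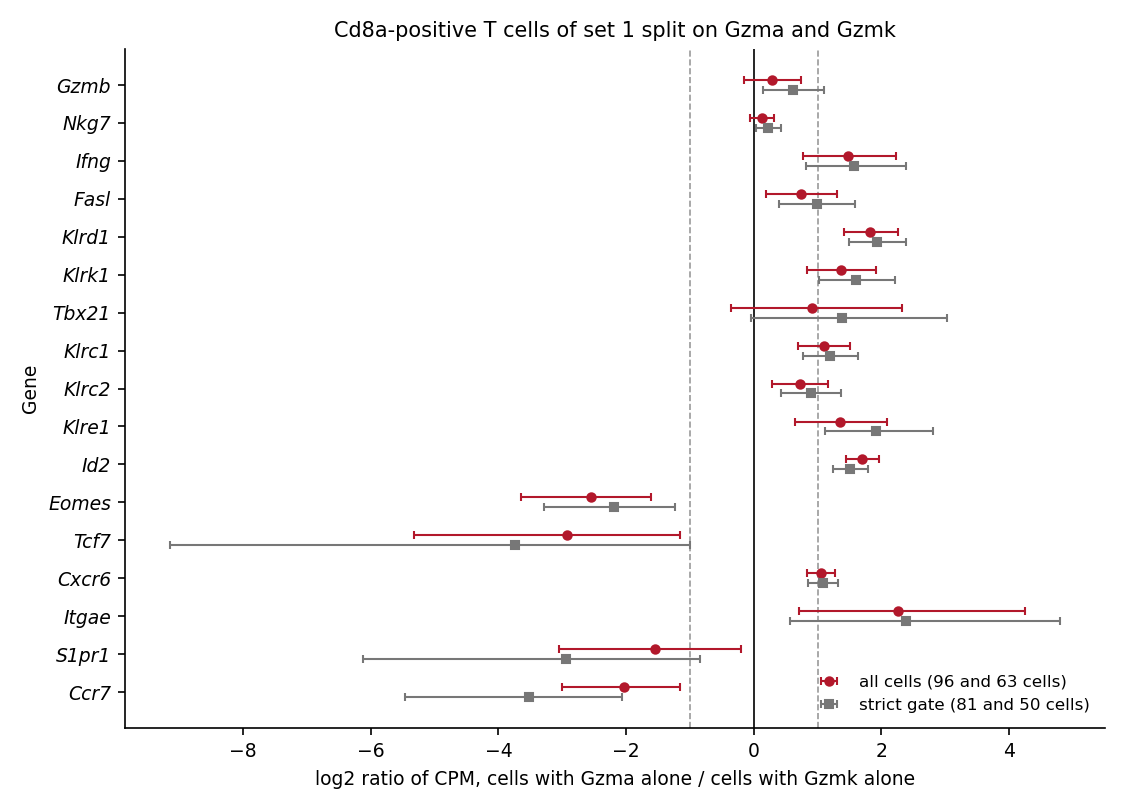
log2 ratio of CPM between Cd8a-positive T cells of set 1 with Gzma and no Gzmk and those with Gzmk and no Gzma, for all cells (red circles) and under the stricter gate (grey squares), with 95% conditional binomial intervals as bars, 2-fold as dashed lines and genes picked after their values were seen. Klrd1, Klrk1 and Ifng lie at 1.36 to 1.93 and Eomes, Tcf7 and Ccr7 at -2.04 or lower in both.

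The Cd8-negative T cells of set 1 were further divided by Cd4, again after the data were seen. In the 57 cells with a Cd4 UMI (median 3925 UMIs), Gzmk measured 132 CPM (97.3 to 176) and was found in 33.3% of cells. In the 170 cells without one (median 3381.5 UMIs) it measured 166 CPM (136 to 201) and was found in 26.5%. Gzmk was thus found in cells with and without a Cd4 UMI, and its intervals overlap. Cd4 had 90 UMIs over the class, so cells without one may hold Cd4 RNA that was not captured. Klrd1 measured 16.9 CPM (6.21 to 36.8) with Cd4 and 126 CPM (99.5 to 156) without, and Klrk1 11.3 CPM (3.07 to 28.9) and 160 CPM (131 to 194). For these receptors the intervals do not overlap. Foxp3, the regulatory T cell factor, was found in 8 cells of each group.

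Where the RNA of each gene lay was also counted over the whole table. In set 1 the 3 lymphocyte classes held between 53.4% (Prf1) and 64.6% (Ifng) of the UMIs of a gene. Cells that passed the same gates but had Epcam UMIs held 29.2% (Gzmk) to 43.2% (Prf1), among them 41.4% of Gzma. T cells with Cd8b1 but no Cd8a UMI held 1.77% (Gzmb) to 7.80% (Gzmk). All other cells held under 8% of a gene each with and without Epcam, with Klrk1 the highest at 7.40% and 6.41%. In set 2, where Prf1 had 0 UMIs, the 3 classes held between 14.3% (Tbx21, of 14 UMIs) and 89.7% (Gzmb, of 58 UMIs). Other cells with Epcam UMIs held between 0% (Gzmb) and 85.7% (Tbx21) there, among them 78.0% of the 41 Fasl UMIs.

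Across 16 cell groups (the 3 lymphocyte classes, C1qa-, Krt5-, Col3a1- and Pecam1-positive cells and luminal cells, each in both sets), the genes with the most similar profile were listed for each granzyme. The measure was Pearson's r of log2(CPM + 10) over 9070 genes with 20 or more lymphocyte UMIs, given as a description because groups of a set share a library. All groups weighed the same, although the lymphocyte classes of set 2 held 8, 23 and 5 cells. Gzmb was highest in the 8 Cd8a-positive T cells of set 2 at 1754 CPM, from 48 UMIs in 2 cells. For Gzma the closest were Klre1 (r = 0.95), D930015E06Rik (0.93), Klrc2 (0.91), Nkg7 (0.91) and Dld (0.90). For Gzmb they were Samd3 and Xcl1 (both 0.97), Klrc1 and Gpr18 (both 0.95) and Snrpg (0.94). For Gzmk they were Ndc80 (0.98), Prkcq (0.96), Nmrk1 (0.94), Bend4 (0.93) and Klra1 (0.92).

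Set 2 held too few lymphocytes for comparisons within a class beyond single values. Gzma had 1 UMI in its 8 Cd8a-positive T cells, 0 in 23 Cd8-negative T cells and 4 in 5 Cd3-negative cells. Gzmb had 48, 0 and 4 UMIs, of which the 48 lay in 2 cells with at most 34 UMIs each. Gzmk had 2, 0 and 0. In the Cd8-negative T cells of set 2 all 3 granzymes were at 0 of 75239 UMIs, which allows up to 39.9 CPM, below the 196 CPM and 154 CPM of Gzma and Gzmk in that class of set 1.

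Over the 3 classes together (36 against 683 cells), 8 of the 10 genes were 2-fold or more lower in set 2 than in set 1 and 1 was higher, beside 12.8% and 9.04% of 9070 features. The class mix differed as well, with 23 of 36 cells Cd8-negative T in set 2 and 227 of 683 in set 1, and its part in these ratios was not tested. By class, the Gzma log2 ratio was -4.97 in Cd8a-positive T cells (1 against 2049 UMIs). It was at most -2.29 in Cd8-negative T cells (0 against 194) and -3.255 in Cd3-negative cells (4 against 1014). Tbx21 stood at 1.10 (-1.97 to 3.02; 2 against 61 UMIs) in Cd8a-positive T cells and had 0 UMIs in the other classes of set 2. Fibroblast genes summed to 0, 2007 and 4459 CPM in the Cd8a-positive, Cd8-negative and Cd3-negative cells of set 2, in 0, 6 and 3 cells. Ptprc was found in 47.8% of the Cd8-negative T cells of set 2, and Krt8 in 65.2% to 80.0% of the cells of a class. Their part in these ratios was not tested. Under the stricter gate 6 genes were 2-fold or more lower and 1 was higher, with Klrk1 at -0.92 and Tbx21 at -0.07. The share over all features was not computed under that gate. Gzma stood at 40.9 CPM (13.3 to 95.6) against 986 CPM (952 to 1020), a log2 ratio of -4.59 (-6.21 to -3.37). Gzmk stood at -3.00 (-6.05 to -1.14), Klrd1 at -2.12 (-3.33 to -1.13), Nkg7 at -1.74 (-2.31 to -1.22) and Ifng at -1.71 (-3.59 to -0.34). Fasl at -1.53 (-2.99 to -0.40) and Klrk1 at -1.41 (-2.37 to -0.60) had intervals below 0, and that of Tbx21 (-1.21, -4.27 to 0.67) includes it. Gzmb was the exception at 1.43 (0.99 to 1.84), with 48 of its 52 UMIs in the 2 cells named above, and stood at 2.26 under the stricter gate, but fell to 0.34 with up to 2 Epcam UMIs allowed and to -0.046 with no condition on Epcam. Prf1 had 0 UMIs in set 2, which allows up to 24.6 CPM, so a level like the 14.2 CPM of set 1 was not detectable at this depth.

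In the lists, 2 of 17 effector genes were higher and 4 lower in set 2, from Gzmc (4.48, 3.35 to 5.59; 14 against 17 UMIs), Lamp1 (1.05) and Tnf (0.72) to Ccl5 (-1.70), Cst7 (-2.87) and Ccl4 (-3.70). Of 13 receptor genes 1 was higher, Il18r1 at 1.17, followed by Il2rb at -0.11 and Il12rb2 at -0.15, and 5 were lower, down to Klre1 at -2.32, Cd226 at -2.91 and Tyrobp at -3.07, while Klrg1, Ncr1, Fcgr3 and Crtam were at 0 UMIs in set 2. Of 9 regulators 0 were higher and 3 lower, from Bach2 (0.88), Tcf7 (0.81) and Eomes (0.11) to Stat4 (-1.07), Prdm1 (-2.28) and Tox (at most -2.64, 0 against 506 UMIs). Of the residency and circulation genes, Itga1 stood at 1.44, Itgae at -0.06, Cxcr6 at -0.54, S1pr1 at -1.90 and Ccr7 at -1.96.

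The epithelial side of these pathways was read for the ligands and receptors that meet the 10 gene products. In Epcam-positive cells with Krt8 and no Krt5 UMI (2850 in set 1 and 7588 in set 2), Fas, the receptor of Fas ligand, measured 15.3 CPM (14.5 to 16.2) in set 1 and 14.2 CPM (13.7 to 14.8) in set 2. H2-T23, whose product Qa-1 is the ligand of CD94 with NKG2A, measured 532 CPM (527 to 538) and 149 CPM (147 to 151). Ifngr1, a chain of the interferon-gamma receptor, measured 79.0 CPM (6439 UMIs) and 18.1 CPM (3030 UMIs). Raet1d, a ligand gene of NKG2D, went the other way, with 0.0368 CPM (3 UMIs) in set 1 and 20.8 CPM (20.1 to 21.5; 3495 UMIs) in set 2, where 21.7% of these cells had a UMI. Members of the Raet1 family are near-identical and reads may be split among them, and Raet1a, Raet1b and Raet1c have no row. The mice had a mixed strain background with 1 library per lesion, and the part of any strain difference in Raet1d was not tested. The Raet1e level was 1.35 CPM and 0.447 CPM, and Serpinb9 stood at 23.1 CPM and 1.94 CPM.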

How the data were processed

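Prostate PIN and PCa tissue of hARtg:Osr1-Cre mice had been dissociated and profiled with 10x Chromium 3' v2 chemistry. Per the submitters' processing notes, reads were counted with Cell Ranger 3.1.0 against mm10, with the hARtg and mGFP sequences added, and low-quality barcodes and multiplets were filtered out, per the methods of the study. The authors deposited each value on a natural log scale, as ln(1 + x), where x is the share of the cell's UMIs scaled to 10000. Dividing by the value of 1 UMI gave whole numbers for 100% of values above 0 (tolerance 0.001), and these recovered UMIs were used. Sums of UMIs per class and barcode set gave CPM. A 3' UMI counts a transcript end, so levels were not scaled by length.

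CPM carry exact Poisson, shares exact Clopper-Pearson and ratios conditional binomial 95% intervals, from scipy 1.17.1, for counting error only. A sum of 0 was set to 3 UMIs in a ratio, as a bound that counts in its own direction only, and no ratio was formed where both sums were at or under 3. Medians of ratios leave bounds out. The fold of interest was 2, over features with 20 or more UMIs on both sides together. Thinning drew 2000 UMIs per cell without replacement. Scrublet (scanpy 1.11.5) was run on each set for doublets. Its automatic limits called 0 cells, and a limit of 0.25 marked 155 cells of set 1 (6 lymphocytes) and 175 of set 2 (0 lymphocytes), which were left out only in an alternative. The ratio script was checked on simulated data. The 10 genes, the gates and the lists were chosen with earlier results of these data known. The genes named from a list are the 3 with the highest and the 3 with the lowest ratio, and a gene of the residency and circulation list is not reported here. Promoter sequences are from RefSeq (GRCm38.p6). Within-class comparisons of the sets had been planned and rested on few cells. They are given for Gzma and Tbx21 only, and a comparison over the 3 classes together was used in their place. The split on Gzma and Gzmk, the split on Cd4, the limit of 2 Epcam UMIs and the comparison of sets over all classes were added after the data were seen. The gate, the Epcam limit, the Cd3 limit, the Il2rb gate, cell weights, scaling and thinning were varied.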

Additional observations from a re-analysis of the deposited data

Results flagged for a closer look

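The T cells of set 1 with Cd8b1 but no Cd8a UMI (62 cells) entered none of the 3 classes, and their granzyme levels lay above those of epithelial cells. Gzma measured 642 CPM (548 to 747) and was found in 22.6% of them, against 0.559 CPM in epithelial cells. Gzmk measured 211 CPM (159 to 275) and was found in 40.3%, against 0.0668 CPM in epithelial cells. No comparison with the 3 classes was tested.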

How the results depend on the processing

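Of 615 alternative values of cell numbers, levels, ratios, shares and counts, 476 stayed within the counting interval of the reported value (counts within 1.5 times), 133 lay outside it and 6, all ratios whose interval had excluded 0, changed sign. With doublets left out, with 2 or more Cd3 UMIs, with Il2rb alone and with scaling without genes over 1% of UMIs, 0 values left it. These 6 sign changes all came with no condition on Epcam. In set 1 this let in 191 Cd8a-positive T, 191 Cd8-negative T and 137 Cd3-negative cells, with medians of 1, 19 and 32 Epcam UMIs. For Cd3-negative over Cd8a-positive T cells the log2 ratios were then -1.30 for Gzma, -0.41 for Gzmb, -0.92 for Fasl, -0.43 for Klrk1 and -0.44 for Tbx21, with Gzmk at -4.40, 0 of the genes higher and 5 lower. For set 2 over set 1, Gzmb was then -0.046, with 0 genes higher. For Cd8a-positive over Cd8-negative T cells, Gzma was then 2.94 and Gzmk, whose interval had included 0, went from -0.05 to 0.81. The classes of set 1 (Cd8a-positive T, Cd8-negative T, Cd3-negative) then held 526, 418 and 258 cells. Shares over all features were not computed for any alternative, so the gene counts of this section have no background beside them.

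Under the stricter gate the classes held 274, 169 and 83 cells, and Gzmb of set 2 over set 1 was 2.26. With up to 2 Epcam UMIs, added after the data were seen, they held 459, 301 and 158 cells. Gzmb was then 1.55 for Cd8a-positive over Cd8-negative T cells and Gzma 0.37 and Gzmb 1.07 for Cd3-negative over Cd8a-positive, with 4 genes higher, and Gzmb of set 2 over set 1 was 0.34, with 0 genes higher. With every cell weighing the same, Gzma was 2.95 and 0.50 in the first and second class comparison, with 1 gene higher in the second. The causes of these moves were not tested. The alternative with 0 UMIs of Trac, Trbc1 and Trbc2 was not run, because these genes have no row. No paired analysis was possible because each lesion had 1 library. Depth limits Prf1 and Tbx21, and set 2 throughout.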

Other observations

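The T cells of set 1 with Cd8b1 but no Cd8a UMI also held the other genes: Nkg7 at 634 CPM (541 to 739), Klrd1 at 181 CPM (133 to 240), Klrk1 at 131 CPM (90.5 to 183), Fasl at 119 CPM (31 UMIs) and Gzmb at 65.3 CPM (38.1 to 105). Ifng measured 42.3 CPM (21.1 to 75.7), Tbx21 19.2 CPM (6.24 to 44.9) and Prf1 11.5 CPM (2.38 to 33.7, 3 UMIs).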
